A study of Zea mays with 12 samples.

Results

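The microRNA loci zma-MIR169c, zma-MIR169e, zma-MIR398b and zma-MIR408b, given here without the species prefix, were followed through 4 treatments of maize roots. They were chosen by their identifiers, as the loci in the deposited table that belong to the MIR169, MIR398 and MIR408 families, and they are 4 of its 26451 entries and 4 of its 25 microRNA loci. RNA selected for poly(A) tails was sequenced from primary roots of the maize inbred B73, from seedlings germinated for 3 days and then kept for 24 h in one of 4 solutions. The 4 groups were 1 mM nitrate with 10 µM PCIB, nitrogen-free solution with 2 µM TIS108, 1 mM nitrate alone, and nitrogen-free solution alone, which is the N-deprived control. PCIB (p-chlorophenoxyisobutyric acid) counters auxin action, and TIS108 blocks the synthesis of strigolactones, hormones derived from carotenoids. Each group had 3 biological replicates of 4 to 8 pooled plants, 12 samples in all.

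The data used here hold 1 value per entry and group, in FPKM, the fragments mapped to a feature scaled by its length and by the library's mapped total. No SD, standard error or p-value can be given, and every difference below describes 4 columns without a replicate check. The sequencing depth behind the values is unknown. In bulk root RNA, fewer cells of a type and less RNA per cell cannot be told apart. The limit for counting a locus as higher or lower was a 2-fold difference after adding 1 FPKM to both values, and the higher group had to reach 5 FPKM. The table pairs no nuclear gene model with a name, so root marker genes could not be checked. The plastid genes psbA and psaB, which mark green tissue, were at most 1.04 and 0.222 FPKM in any group. How far selection for poly(A) tails keeps plastid transcripts was not tested, so these values cannot settle whether green tissue was present.

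MicroRNAs are cut from longer primary transcripts that RNA polymerase II makes and that carry a poly(A) tail before processing, so reads over these loci in a poly(A) library can come from the primary transcript or from other transcripts that cover the locus, and they do not measure the mature microRNA. In plants the mature form guides cleavage of transcripts to which it is closely complementary. The miR169 family targets transcripts of NF-YA subunits, part of a trimeric factor that binds CCAAT boxes, and in Arabidopsis its level falls when nitrogen is withheld. In Arabidopsis miR398 targets copper/zinc superoxide dismutases and their copper chaperone, miR408 targets plantacyanin and laccases, and both accumulate when copper is scarce, which spares copper for other proteins.

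The families are larger than what the table names. RefSeq names 18 MIR169 loci, 2 MIR398 loci and 2 MIR408 loci in the maize assembly Zm-B73-REFERENCE-NAM-5.0, 22 in all, and 4 of them have an entry under their name in the table. Of 6 other families linked to copper, phosphate or sulfate supply (MIR395, MIR397, MIR399, MIR528, MIR827 and MIR857), RefSeq names 30 loci, with 0 for MIR857. Of these 30 loci 0 have an entry under their name. RNA genes that the table lists only under Ensembl identifiers were not searched for any of these families. In the RefSeq assembly each of the 4 loci overlaps another annotated gene. Strand, length and full containment were not compared. MIR398b overlaps the long noncoding RNA LOC100274660, and MIR408b overlaps the long noncoding RNA LOC115032969. MIR169c overlaps the noncoding RNA LOC115032953 and the protein-coding gene LOC103648407. MIR169e overlaps the noncoding RNA LOC115032954, the protein-coding gene LOC100383927 and a second microRNA locus of its own family, MIR169h. In the table each locus stands next to 1 ENSRNA entry (an RNA gene annotated by Ensembl) with the same value in all 4 groups. All 25 microRNA loci have an ENSRNA entry of identical values, so this is not particular to the 4. Reads of a locus and of the entries that overlap it cannot be told apart here.

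All 4 loci were expressed at modest levels, and each had its own order of groups. MIR169c was at 5.58 FPKM with nitrate plus PCIB, 3.49 FPKM with TIS108, 8.66 FPKM with nitrate and 2.65 FPKM in the N-deprived control. It was thus highest in both solutions that contained nitrate. MIR169e was at 3.83 FPKM with nitrate plus PCIB, 2.38 FPKM with TIS108, 2.14 FPKM with nitrate and 2.53 FPKM in the control. It was highest with nitrate plus PCIB, and its other 3 values lay close together. MIR398b was at 1.97 FPKM with nitrate plus PCIB, 3.74 FPKM with TIS108, 1.75 FPKM with nitrate and 5.09 FPKM in the control. Both nitrogen-free groups were above both groups with nitrate. MIR408b was at 1.45 FPKM with nitrate plus PCIB, 5.13 FPKM with TIS108, 5.56 FPKM with nitrate and 2.20 FPKM in the control. The values with nitrate and with TIS108 were close to each other and well above the other 2 groups. Without replicates, whether neighbouring values in these orders differ cannot be tested.

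**Figure D1:**
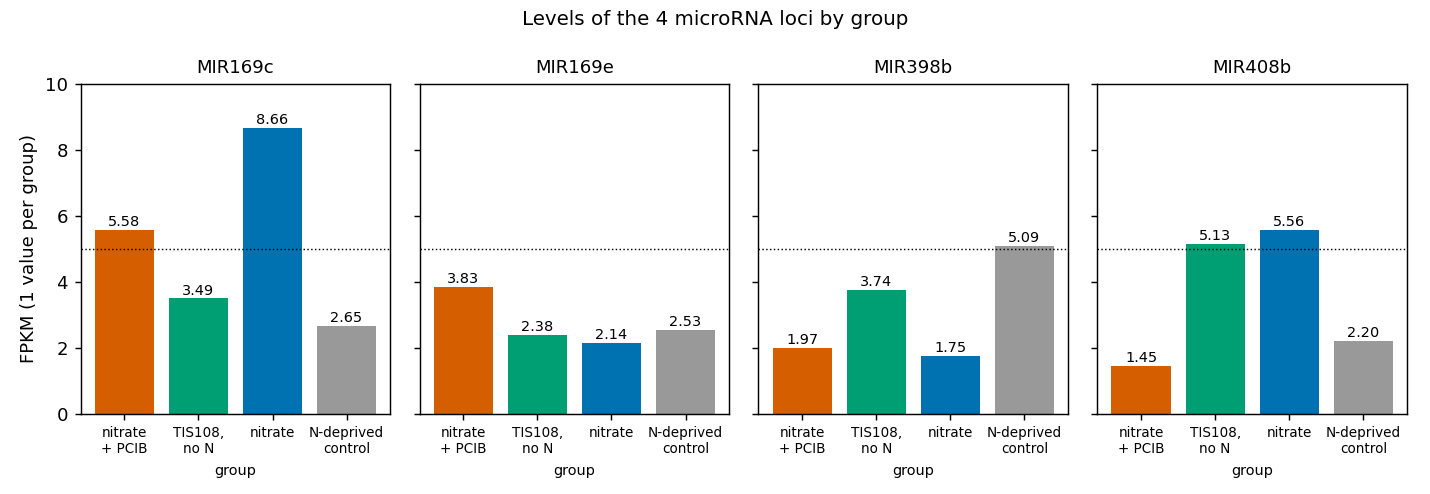
FPKM (vertical axis, starting at 0) of each locus in the 4 groups, with 1 value per group and no error bars because no replicate values were used. The dotted line marks the 5 FPKM minimum, which MIR169e reached in no group; MIR169c peaked with nitrate at 8.66 FPKM, MIR398b in the N-deprived control at 5.09 FPKM and MIR408b with nitrate at 5.56 FPKM.

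Against the whole table these are low to middling levels that varied more than most. The median entry was at 6.38 FPKM with nitrate plus PCIB, 6.18 FPKM with TIS108, 6.21 FPKM with nitrate and 6.38 FPKM in the control. The highest value of any of the 4 loci, that of MIR169c with nitrate, exceeded 58.6% of entries, and the lowest, that of MIR408b with nitrate plus PCIB, exceeded 21.3%. The ratio of the highest to the lowest group was 3.84 for MIR408b, the widest of the 25 microRNA loci. It was 3.27 for MIR169c, the third widest, 2.91 for MIR398b, the fifth, and 1.79 for MIR169e, the 12th. The median of this ratio was 1.68 over the 25 loci and 1.38 over all entries, and the ratio of MIR408b exceeded that of 95.2% of entries. FPKM values of such short, low features are less stable than those of long ones, and the part of this in the wide ratios was not tested.

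Nitrate alone against the N-deprived control, the comparison that addresses the response to nitrate, separated the loci of copper-linked families from each other. MIR408b was higher, at 5.56 FPKM with nitrate and 2.20 FPKM in the control, a log2 difference of 1.03. MIR398b was lower, at 1.75 FPKM with nitrate and 5.09 FPKM in the control, with a log2 difference of -1.15. The MIR169 loci also parted. MIR169c was higher, at 8.66 FPKM with nitrate and 2.65 FPKM in the control, a log2 difference of 1.40. MIR169e was at 2.14 FPKM with nitrate and 2.53 FPKM in the control, a log2 difference of -0.17 that was 0.0022 after quantile normalization. In all, 2 of the 4 loci were counted as higher, where the background was 0.561% of 15510 entries at 5 FPKM or more, and 1 was counted as lower, where it was 3.46%. MIR169e was counted in no comparison. It never reached 5 FPKM, and its widest log2 difference in any of them was 0.62, so it was short of the 2-fold limit without a minimum as well. The 5 FPKM minimum was reached by 3 of the 4 loci and by 13 of the other 21 microRNA loci, and only these could be counted. None of the 21 met the limit in either direction, but MIR167g, MIR166d and MIR156k came near it. Their log2 differences were 0.90, 0.90 and -0.91. As plain ratios without the added 1 FPKM, at 2.21, 2.03 and 0.497, they were past 2-fold. The median log2 difference of the 4 loci was 0.43, beside 0.01 over all entries, and stood between values of opposite sign.

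The calls of MIR398b and MIR408b were near the limit. That of MIR398b rested on a control value just above the 5 FPKM minimum. That value was 4.85 FPKM once all columns had equal sums and 4.93 FPKM after quantile normalization, so the difference was then not counted, although its log2 size remained at -1.08 and -1.02. The difference of MIR408b was 0.98, short of the limit, with columns rescaled by their median ratio.

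PCIB added to nitrate, set against nitrate alone, was the comparison in which MIR408b differed most. MIR408b was at 1.45 FPKM with nitrate plus PCIB and 5.56 FPKM with nitrate, a ratio of 0.261 and a log2 difference of -1.42. Its level with PCIB was the lowest of its 4 values and lay below the control as well, at a ratio of 0.658. It was the 1 locus of the 4 counted as lower, where the background was 0.861% of 15447 entries, and 0 were counted as higher, where it was 3.70%. Only 2 of the 4 loci and 13 of the other 21 microRNA loci reached 5 FPKM and could be counted here. Of the 21, 2 were counted as lower, MIR171f and MIR167g, and 0 as higher.

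MIR169c was at 5.58 FPKM with nitrate plus PCIB and 8.66 FPKM with nitrate, a log2 difference of -0.55, short of the limit. MIR398b was almost level, at 1.97 FPKM with nitrate plus PCIB and 1.75 FPKM with nitrate, a log2 difference of 0.11 that was -0.0021 after quantile normalization. MIR169e was at 3.83 FPKM with nitrate plus PCIB and 2.14 FPKM with nitrate, a log2 difference of 0.62 in the direction opposite to MIR169c. Its ratio of 1.79 was the widest between any of its groups.

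Set against the N-deprived control, nitrate with PCIB kept the direction of the nitrate values for MIR169c and MIR398b and not for MIR408b. MIR398b was counted as lower, at 1.97 FPKM with nitrate plus PCIB and 5.09 FPKM in the control, a log2 difference of -1.03. The background was 2.00% of 15622 entries. MIR169c was at 5.58 FPKM with nitrate plus PCIB and 2.65 FPKM in the control, a ratio of 2.10 but a log2 difference of 0.85 after adding 1 FPKM, short of the limit. No locus of the 4 was counted as higher, where the background was 1.91%. Again 2 of the 4 loci reached the 5 FPKM minimum, beside 11 of the other 21 microRNA loci. Of the 21, 1 was counted as lower, MIR171f at a log2 difference of -1.67, and 0 as higher. MIR408b had a log2 difference of -0.39, and MIR169e one of 0.45. This comparison shares its control values with that of nitrate alone, and whether the response to nitrate itself differed with PCIB was not tested. The call of MIR398b was again lost with equal column sums, at a log2 difference of -0.996, and after quantile normalization, at -1.03, and in both settings its control value lay below 5 FPKM.

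TIS108 without nitrogen was compared with the N-deprived control to address the inhibition of strigolactone synthesis. Of the 4 loci MIR408b had the widest difference, at 5.13 FPKM with TIS108 and 2.20 FPKM in the control, a ratio of 2.33. Its log2 difference was 0.94, short of the limit, and was 1.05 with equal column sums and 1.04 after quantile normalization, both past it. Entries counted as higher were rare here, 0.0195% of 15381 entries, and 1.85% were lower; 0 of the 4 loci were counted in either direction. At 5 FPKM or more were 2 of the 4 loci and 12 of the other 21 microRNA loci. Of the 21, 1 was counted as lower, MIR156k at a log2 difference of -1.23, and 0 as higher. MIR398b was at 3.74 FPKM with TIS108 and 5.09 FPKM in the control, a log2 difference of -0.36. MIR169c was at 3.49 FPKM with TIS108 and 2.65 FPKM in the control, a log2 difference of 0.30. MIR169e had a log2 difference of -0.06, against 0.05 with equal column sums and 0.06 after quantile normalization. The sum of FPKM was 447300 with TIS108 and 497447 in the control, so giving all columns equal sums shifted the median of all entries in this comparison by 0.11 on the log2 scale.

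Set against nitrate, roots given TIS108 without nitrogen had less from MIR169c and nearly the same from MIR408b. MIR169c was at 3.49 FPKM with TIS108 and 8.66 FPKM with nitrate, a log2 difference of -1.11. It was the 1 locus of the 4 counted as lower, where the background was 0.597% of 15066 entries. MIR408b was at 5.13 FPKM with TIS108 and 5.56 FPKM with nitrate, a ratio of 0.922. MIR398b was at 3.74 FPKM with TIS108 and 1.75 FPKM with nitrate, a ratio of 2.14 but a log2 difference of 0.79 after adding 1 FPKM, short of the limit, and it reached 5 FPKM in neither group. No locus was counted as higher, where the background was 0.757%, and MIR169e had a log2 difference of 0.11. The 5 FPKM minimum was reached by 2 of the 4 loci and by 13 of the other 21 microRNA loci. None of the 21 was counted in this comparison, but MIR166d came near the limit. Its ratio was 0.464 and its log2 difference -0.98, close to that of MIR169c. MIR159d had a ratio of 2.42 at levels below 5 FPKM, and its log2 difference was 0.67.

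**Figure D2:**
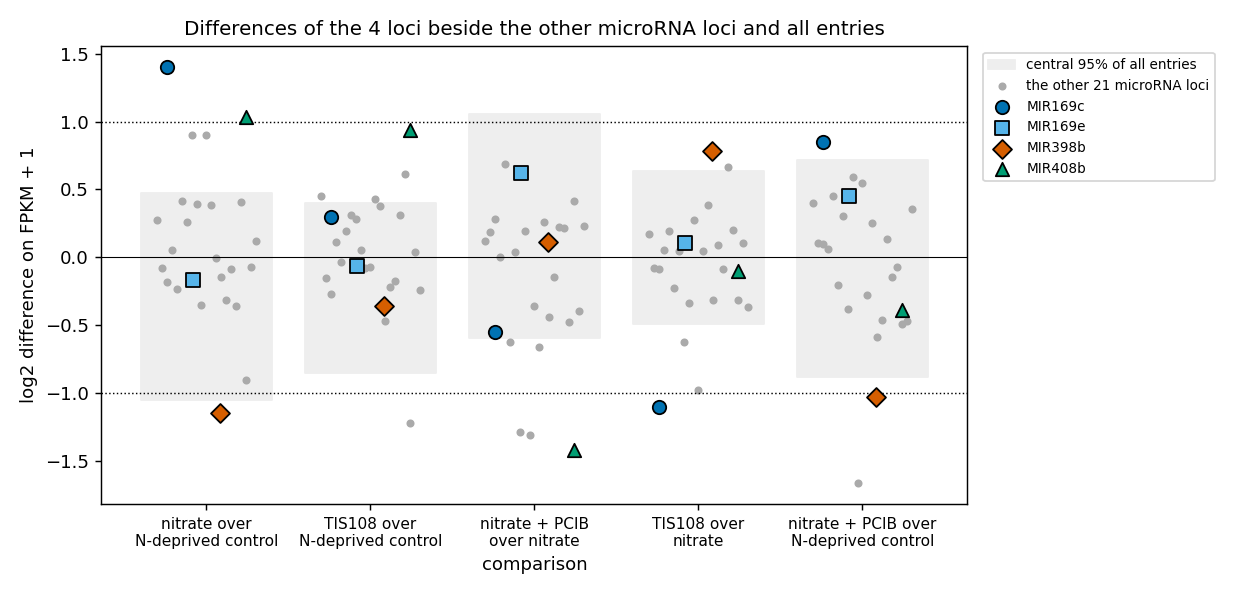
The log2 difference after adding 1 FPKM (vertical axis) in each of 5 comparisons, for the 4 loci (coloured symbols) and the other 21 microRNA loci (grey points), with the central 95% of all 26451 entries shaded and the 2-fold limit dotted. MIR169c at 1.40 and MIR408b at 1.03 stood above the shaded range with nitrate and MIR398b at -1.15 below it, while MIR408b at -1.42 lay below it with PCIB.

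Because FPKM is scaled by length, the values of the loci can also be set beside each other within a group. Such ratios do not depend on how the columns are scaled to a common sum. FPKM of such short features is less stable, and reads can come from other transcripts that cover a locus. The ratios therefore compare reads over the loci and cannot be taken as ratios of their primary transcripts. The MIR169 loci were nearly level in the control, where MIR169c was at 1.05 times MIR169e. The ratio was 1.46 with nitrate plus PCIB, 1.47 with TIS108 and 4.05 with nitrate, so MIR169c exceeded MIR169e most in nitrate alone. Members of one family, whose mature forms share targets, thus differed by group in the reads over their loci.

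The copper-linked loci exchanged places. MIR398b was at 1.36 times MIR408b with nitrate plus PCIB, 0.729 times with TIS108, 0.314 times with nitrate and 2.31 times in the control. MIR398b was the higher of the pair in the control and with PCIB, and MIR408b with nitrate and with TIS108.

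**Figure D3:**
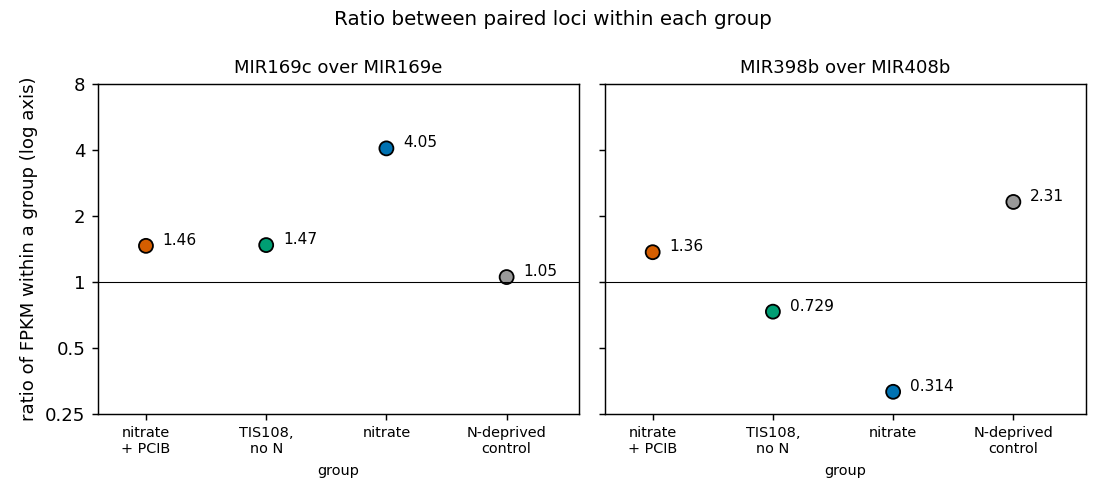
Ratio of FPKM between MIR169c and MIR169e (left) and between MIR398b and MIR408b (right) within each group, on a log axis with 1 point per group and a line at equal levels. The left ratio was 4.05 with nitrate and at most 1.47 elsewhere; the right ratio was above 1 with nitrate plus PCIB (1.36) and in the N-deprived control (2.31) and below 1 with TIS108 (0.729) and nitrate (0.314).

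The features with names whose pattern over the 4 groups was most like that of each locus were then found among 96 microRNA loci and organelle genes. Likeness was the Euclidean distance between log2(FPKM + 1) values centred on their mean over the 4 groups, a description over 4 points. For scale, the distance of each locus from a flat pattern was 1.07 for MIR169c, 0.48 for MIR169e, 0.95 for MIR398b and 1.21 for MIR408b. The distance between MIR169c and MIR169e was 1.19 and that between MIR398b and MIR408b 1.61, so neither pair shared a pattern.

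MIR169c was nearest to MIR166d, of a family that acts on HD-ZIP class III transcripts, at a distance of 0.37. MIR166d was at 8.61 FPKM with nitrate plus PCIB, 5.24 FPKM with TIS108, 11.3 FPKM with nitrate and 5.58 FPKM in the control, the same order of nitrate alone above nitrate plus PCIB above the nitrogen-free groups. The second was orf186, a mitochondrial open reading frame, at a distance of 0.73. Its values were only 0.41 to 0.99 FPKM, and adding 1 FPKM flattens a pattern at such levels. MIR408b was nearest to MIR167g, at 0.54, and to MIR160b, at 0.65, both of families that target transcripts of auxin response factors. MIR167g was at 1.76 FPKM with nitrate plus PCIB, 3.36 FPKM with TIS108, 5.73 FPKM with nitrate and 2.60 FPKM in the control, so its nitrate value stood alone where MIR408b was as high with TIS108.

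MIR169e was nearest to MIR319b, whose family targets TCP transcription factor transcripts, at a distance of 0.07, and to rps1, a mitochondrial ribosomal protein gene, at 0.13. MIR319b was at 4.11 FPKM with nitrate plus PCIB, 2.63 FPKM with TIS108, 2.17 FPKM with nitrate and 2.73 FPKM in the control. The nearest named feature lay farthest away for MIR398b. Its 2 closest were MIR164d, whose family targets NAC transcription factor transcripts, at 0.67 and MIR159d, whose family targets GAMYB-type transcripts, at 0.70, and 6.81% of nuclear gene models were closer to it than MIR164d. That share was 0.0729% for the nearest named feature of MIR169c, 0.0691% for that of MIR169e and 0.0806% for that of MIR408b.

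**Figure D4:**
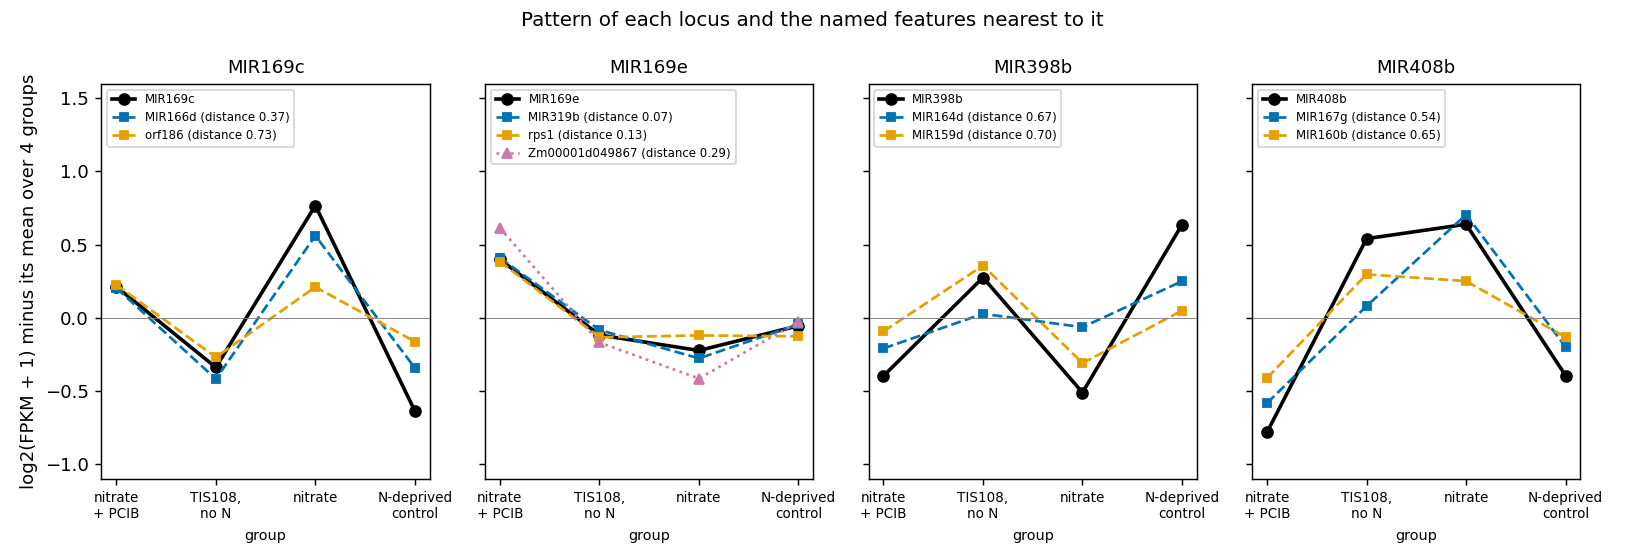
Values of log2(FPKM + 1) minus their mean over the 4 groups for each locus (black) and the 2 named features nearest to it (dashed), with 1 point per group; lines only join the points of one entry. MIR169e lies almost on MIR319b (distance 0.07), and the triangles show the nuclear gene model listed after it (distance 0.29), while MIR398b has its nearest feature at 0.67.

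The entries listed beside a locus were examined because each locus overlaps another annotated gene in the RefSeq assembly. The table follows the order of the genome as far as this can be checked: all 16 neighbouring pairs of microRNA loci that RefSeq places on one chromosome stood in RefSeq order. Both nuclear gene models listed next to MIR169e had the same order of groups as MIR169e. The one directly before it was at 8.69 FPKM with nitrate plus PCIB, 7.73 FPKM with TIS108, 5.84 FPKM with nitrate and 8.40 FPKM in the control, at a distance of 0.34, and 9.86% of nuclear gene models were closer to MIR169e in pattern. Zm00001d049867, the first nuclear gene model listed after MIR169e, was at 30.3 FPKM with nitrate plus PCIB, 17.2 FPKM with TIS108, 14.4 FPKM with nitrate and 19.1 FPKM in the control, at a distance of 0.29. For it the share of closer models was 6.35%. Both were examined after their values were seen, and neither carries a name here. Whether either overlaps MIR169e in the build of the data was not tested. The share of all entries with the order of groups of MIR169e was not counted. With equal column sums MIR169e itself was at 2.52 FPKM with TIS108 and 2.41 FPKM in the control, so its order changed there.

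The gene models listed next to the other loci had other patterns. Those beside MIR169c were nearly level, between 7.62 and 10.0 FPKM in all groups, while MIR169c spanned 2.65 to 8.66 FPKM. The one listed directly before MIR408b was abundant, at 153 FPKM with nitrate plus PCIB, 137 FPKM with TIS108, 98.4 FPKM with nitrate and 174 FPKM in the control, and was lowest with nitrate, where MIR408b was highest. The one listed directly after MIR398b was at 2.98 to 3.43 FPKM in all groups, and the one before it was below 1 FPKM throughout.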

How the data were processed

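RNA-seq of 12 samples in 4 groups was analysed; the titles of the samples gave the groups. Total RNA was extracted with a plant RNA kit and paired-end TruSeq libraries were made, per the labels' protocols. Per the submitters' processing notes, CASAVA 1.8, Trimmomatic 0.39, TopHat2 2.0.13 and the build B73 RefGen_v4 were used. Not given in the sources used here are the program behind the expression values, the annotation release, the use of strand and the way replicates were combined.

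The authors deposited 1 FPKM value per entry and group, and 0 columns belonged to no group. FPKM depends on annotated length and on all mapped fragments, so short features are less stable. Depth is unknown, so no interval or detection limit is given. Of the names, 25 microRNA loci and 72 organelle entries matched a RefSeq table of another build, used for names and neighbours only, and 0 of 26061 nuclear gene models, so NF-YA and copper protein genes could not be examined. No sequences were used here.

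The planned limma test needs replicate columns, so 0 tests were run. The stated rule for 1 value per group was applied (pseudocount 1, 2-fold, 5 FPKM) with Python 3.11.15, numpy 2.4.6 and pandas 2.3.3. Its code was first run on simulated columns without noise, with changes planted only in entries whose mean levels lay above those of the 4 loci. That check says nothing about noise or about the rule at the levels of the 4 loci. Named were the 4 loci, entries with identical values and the 2 nearest named features of each. MIR156k, MIR171f and Zm00001d049867 were named after their values were seen. The members and lists were chosen with earlier results of these data known. There were 10 alternatives in pseudocount, minimum level, fold limit and column scaling.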

Additional observations from a re-analysis of the deposited data

How the results depend on the processing

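The counts of the 4 loci past the 2-fold limit were recomputed under 10 alternatives in 5 comparisons, and 32 of 50 counts stayed within 1.5 times the reported one. This share is a loose measure. The settings without a minimum and with a minimum of 1 FPKM gave the same counts as each other in all 5 comparisons. No counted difference changed sign, but the pseudocount, minimum level and fold limit cannot change a sign. Only the column rescalings could have done so. With nitrate over the N-deprived control, 3 loci were counted, and 0 with a pseudocount of 5 or a minimum of 10 FPKM. Each column rescaling left 2 counted, which lies within 1.5 times although MIR398b or MIR408b was lost. With nitrate plus PCIB over nitrate and with TIS108 over nitrate, 1 locus was counted in each, and 0 in both under those 2 settings. With nitrate plus PCIB over the control, 1 was counted, against 0 with a pseudocount of 5, a minimum of 10 FPKM, columns rescaled to the same sum or quantile normalization, and 2 with a pseudocount of 0.1, plain ratios or a 1.5-fold limit. With TIS108 over the control, 0 were counted, and 1, MIR408b, with a pseudocount of 0.1, plain ratios, a 1.5-fold limit, the same sum or quantile normalization. A minimum of 10 FPKM removes all 4 loci by construction, and a pseudocount of 5 exceeds most of their levels. With a pseudocount of 5 the log2 differences with nitrate over the control were 0.84 for MIR169c, 0.55 for MIR408b and -0.58 for MIR398b, and that of MIR408b with nitrate plus PCIB over nitrate was -0.71.

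Over all entries, the number past the limit was 623 with nitrate over the control (239 to 1769 under the alternatives), 287 with TIS108 over the control (105 to 1279), 705 with nitrate plus PCIB over nitrate (339 to 1757), 204 with TIS108 over nitrate (80 to 755) and 611 with nitrate plus PCIB over the control (282 to 1641). The lowest came with a pseudocount of 5 and the highest with a 1.5-fold limit. No paired analysis was possible because the columns carry no replicate numbers, and for the same reason no replicate could be left out.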
